A study of Mus musculus with 3 samples.

Results

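The places that a ZFP410 antibody and a control IgG marked in untreated mouse brown preadipocytes were compared, using every peak of both deposited lists. The antibody list held 3256 peaks and the IgG list 480, which together made 3736 of the 11211 peaks of the series. The remaining 7475 came from cells held for 3 days in medium that drives brown adipocyte differentiation, called induced here, and served only as a reference. All 3 libraries were made from brown preadipocytes that had been sorted from the brown fat of male wild-type C57BL/6 mice as negative for lineage markers and positive for CD29, CD34 and Sca1. No age and no number of animals is given in the sources used here. The assay was CUT&Tag, in which an antibody on chromatin recruits a transposase that cuts and tags the nearby DNA. The antibodies were a ZFP410 antibody and an IgG, both from Proteintech, and no agent was added to the cells of either library. Each antibody had 1 library, so the differences below are between libraries, have no replicate check and carry no p-value. Intervals are 95% Wilson intervals unless named otherwise and cover counting error only.

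ZFP410 is a zinc finger protein that binds DNA directly. In other cell types it is known for its binding to clustered copies of one motif, with the core CCCATAA, at the promoter of Chd4, which encodes an ATPase of the NuRD chromatin remodelling complex. An IgG of no set target shows where the transposase cuts without being led to a protein, commonly in open chromatin and in repeated DNA that piles up reads. Brown preadipocytes are the precursors of the fat cells that burn fuel for heat.

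Promoter sequences are shown here for the sites the comparison turns on. Each is the 250 bases before a transcription start, 5′ to 3′ on the strand of the gene, from RefSeq on GRCm38.p6, whose coordinates are those of mm10. Capitals mark the ZFP410 core CCCATAA, the GC box GGGCGG and the CCAAT box CCAAT, each on either strand, so that TTATGGG is the core on the opposite strand and ATTGG the CCAAT box. Chd4 (chr6:125095731-125095980, plus strand) is the known target, and its stretch holds 3 cores. Ska2 (chr11:87109011-87109260, plus strand), for a protein of the mitotic spindle and kinetochore, Mrpl45 (chr11:97315466-97315715, plus strand), for a protein of the mitochondrial ribosome, and Stip1 (chr19:7040027-7040276, minus strand), for a co-chaperone that links HSP70 and HSP90, held some of the highest gene-end peaks of the antibody list. Hspa1a (chr17:34972157-34972406, minus strand) encodes a heat-inducible HSP70. Dusp6 (chr10:99262981-99263230, plus strand), for a phosphatase that acts on ERK, is shown because it had a peak in each list.
Chd4: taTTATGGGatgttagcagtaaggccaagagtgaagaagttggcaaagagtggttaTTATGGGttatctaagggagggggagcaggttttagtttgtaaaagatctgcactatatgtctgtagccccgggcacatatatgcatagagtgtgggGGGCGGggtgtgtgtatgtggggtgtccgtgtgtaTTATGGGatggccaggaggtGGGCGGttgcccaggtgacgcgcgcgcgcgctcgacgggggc
Ska2: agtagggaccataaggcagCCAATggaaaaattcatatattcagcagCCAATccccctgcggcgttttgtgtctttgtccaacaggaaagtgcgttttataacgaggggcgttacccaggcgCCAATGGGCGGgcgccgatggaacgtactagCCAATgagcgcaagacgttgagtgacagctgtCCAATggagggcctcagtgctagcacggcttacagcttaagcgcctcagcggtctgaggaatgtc
Mrpl45: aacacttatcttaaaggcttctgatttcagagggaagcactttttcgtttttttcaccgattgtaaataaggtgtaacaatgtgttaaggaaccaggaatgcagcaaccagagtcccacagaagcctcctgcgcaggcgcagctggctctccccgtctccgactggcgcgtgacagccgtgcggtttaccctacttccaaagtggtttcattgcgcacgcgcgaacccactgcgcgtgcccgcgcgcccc
Stip1: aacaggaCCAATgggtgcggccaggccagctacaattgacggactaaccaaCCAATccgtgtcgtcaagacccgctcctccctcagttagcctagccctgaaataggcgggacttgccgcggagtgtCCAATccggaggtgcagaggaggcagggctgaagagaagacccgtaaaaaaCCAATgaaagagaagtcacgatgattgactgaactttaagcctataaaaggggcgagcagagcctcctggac
Hspa1a: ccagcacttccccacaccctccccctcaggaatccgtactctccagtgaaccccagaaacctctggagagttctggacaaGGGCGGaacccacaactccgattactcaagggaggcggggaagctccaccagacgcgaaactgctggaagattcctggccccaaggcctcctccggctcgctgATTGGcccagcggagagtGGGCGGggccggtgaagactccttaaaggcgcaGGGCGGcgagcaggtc
Dusp6: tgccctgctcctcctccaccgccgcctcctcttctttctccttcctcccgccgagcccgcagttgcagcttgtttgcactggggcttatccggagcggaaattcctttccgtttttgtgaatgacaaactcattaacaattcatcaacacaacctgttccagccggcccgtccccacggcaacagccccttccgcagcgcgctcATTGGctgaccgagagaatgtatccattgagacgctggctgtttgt
Of these 6 stretches, only that of Chd4 held the core, and that of Mrpl45 held none of the 3 motifs.

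The height of a peak is given as summit fragments, the number of sequenced fragments stacked at its highest base, recovered from the fold and p-value in the authors' lists. The genome-wide background of the antibody library was 0.110 fragments per base and that of IgG 0.0231, a ratio of 4.77. Dividing each background by the shortest peak of its list, taken as the fragment length of the caller, gave a ratio of depth of 7.04. A site equally enriched over the genome background in both libraries would therefore hold 4.77 times as many fragments with the antibody, or 7.04 times by depth. The median summit held 4 fragments in each list, and the lowest held 3 with the antibody and 2 with IgG. A median antibody peak would have held 0.839 fragments in the IgG library, below anything the caller listed there. A site with few antibody fragments that lacks an IgG peak therefore says nothing of a difference between the antibodies at that site.

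Gene ends held much of the antibody list and little of the IgG list. A gene end is here a summit within 1 kb of the first or last base of 1 of 21887 protein-coding genes. It held 726 of 3256 antibody peaks (22.3%, interval 20.9 to 23.8) and 8 of 480 IgG peaks (1.67%, interval 0.847 to 3.25), a gap of 20.6 percentage points and a ratio of 13.4. Gene ends make up 2.91% of the placed chromosomes, so the antibody share was 7.66 times the share of bases and the IgG share 0.573 times. Peaks inside genes were 1123 with the antibody (34.5%) and 112 with IgG (23.3%), against 36.3% of bases. Peaks between genes were 1372 (42.1%) and 350 (72.9%, interval 68.8 to 76.7), against 60.8% of bases. The antibody list was therefore above the share of bases at gene ends and below it between genes. The IgG list was above it between genes, and at gene ends its interval included the share of bases.

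**Figure D1:**
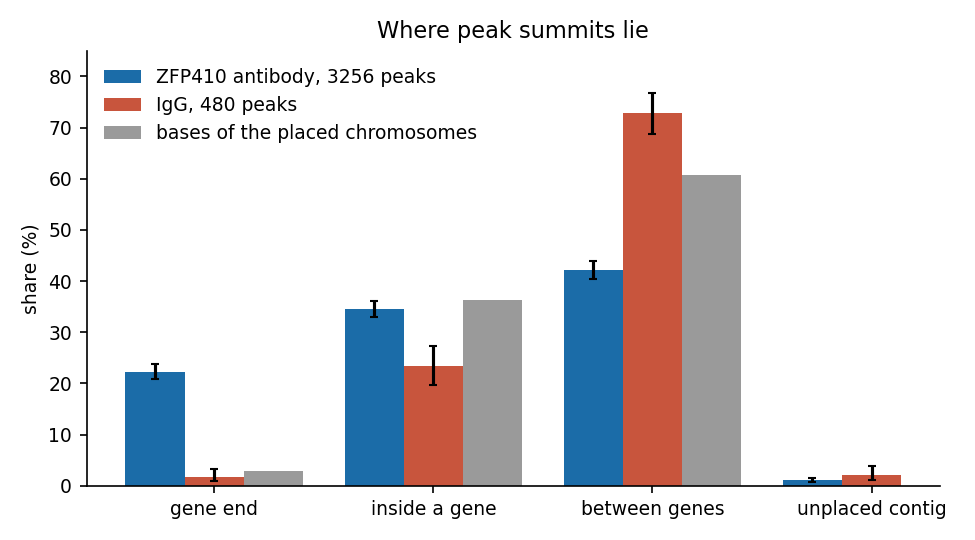
The share of peak summits (%) at gene ends, inside genes, between genes and on unplaced contigs, for the ZFP410 antibody (blue) and IgG (red), with the share of bases of the placed chromosomes (grey); bars show 1 library each and error bars 95% Wilson intervals. The antibody bar at gene ends stands at 22.3% over 2.91% of bases, and the IgG bar between genes at 72.9% over 60.8%.

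The gap was also present between peaks of equal height. Among peaks of 3 fragments, 150 of 845 antibody peaks (17.8%) and 1 of 135 IgG peaks (0.741%) lay at gene ends. At 4 fragments these were 195 of 856 (22.8%) and 1 of 78 (1.28%). At 5 fragments they were 156 of 530 (29.4%) and 0 of 45, where a count of 0 allows an IgG share of up to 6.67% (3 counts of the total, not a Wilson limit). Peaks of more than 20 fragments gave 10 of 91 (11%) and 1 of 41 (2.44%), so the share was lowest among the tallest antibody peaks. Those 91 included 25 on unplaced contigs, 24 of them overlapping an IgG peak, and 48 between genes, 32 of them overlapping one. The 100 antibody peaks of highest fold gave 18%. The 480 antibody peaks of highest fold, as many as IgG had, gave 23.3%. The lists also differed in the local background that the caller set. It was more than 2 times the genome's under 336 antibody peaks (10.3%) and 333 IgG peaks (69.4%). It equalled the genome's under 78.4% of antibody and 9.58% of IgG peaks. It did so under 84 antibody fragments inside Alg9, whereas 79 IgG fragments near Zwint stood over 2.56. Gene-end shares were 21.7% and 2.72% over a low background and 27.4% and 1.2% over a raised one, so the gap was present in both classes. The caller's control is not stated and the lists may measure background differently, so these classes are not a matched comparison. Equal numbers of fragments stand for a higher enrichment in the shallower IgG library, and the part of depth in the gap was not tested further.

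At gene ends the antibody signal sat on the transcription start. RefSeq promoters gave a start for 17492 of the 21887 genes, and none on chromosome 18. Of the 726 gene-end peaks, 550 (75.8%) lay within 1 kb of a start, 41 at a last base only and 118 at genes with no strand in the tables. Over the whole list 640 summits (19.7%, interval 18.3 to 21.1) lay within 1 kb of a start, 344 before it and 296 after it, at a median distance of 154 bp. Of these, 450 lay within 250 bp and 221 within 100 bp. With IgG 3 summits (0.625%) lay within 1 kb, 1 of them within 250 bp and 0 within 100 bp. The antibody summits thus crowded at starts on both sides, and the IgG list had too few there to show a shape.

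**Figure D2:**
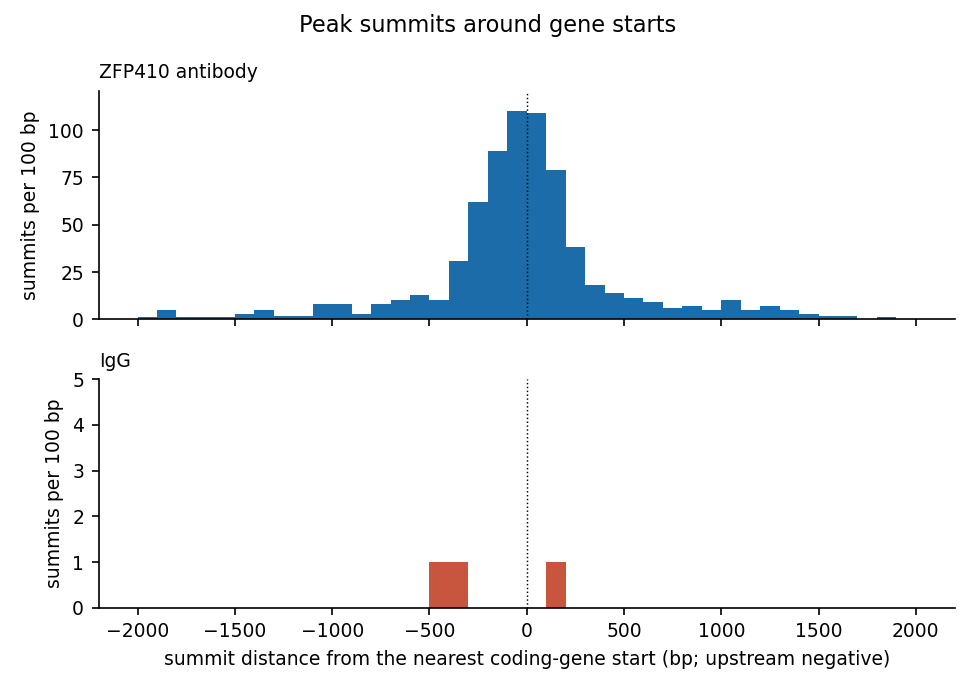
Peak summits per 100 bp against the distance from the nearest coding-gene start (bp, upstream negative) for the antibody (top) and IgG (bottom, own scale). The antibody counts are highest in the 100 bp before and the 100 bp after the start, at 110 and 109 summits, and IgG has 3 summits within 1 kb.

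The promoters with an antibody summit were rich in CpG and GC boxes. The promoter table gives 21263 windows of 250 bases before to 50 after a start, and antibody summits fell in 296 of them, against 0 IgG summits. The 296 held a median of 25 CpG steps against 13 over all windows, and 63.7% G and C against 56.3%. Searched on both strands, the GC box GGGCGG was in 78.4% of them against 46.2% of all. TGACG, the core of the cAMP response element, was in 41.9% against 23.6%, and some of its matches belong to longer motifs. CCGGAAG, bound by ETS factors, was in 23.0% against 11.6%. CCAAT was in 42.6% against 38.2%, the E-box CACGTG in 11.1% against 7.84%, and TATAAA in 5.74% against 12.6%. These shares were not matched for CpG content, and a match is not evidence of binding.

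The core CCCATAA was not more frequent in these windows than in all promoter windows. It was in 6 of the 296 windows (2.03%, interval 0.932 to 4.35) against 2.41% of all 21263. The 6 were both windows of Chd4 and those of Cops7a, Lrig1, Nfya and Tufm. At least 1 copy was found in the windows of 492 genes, and 15 of these (3.05%) had an antibody peak at a gene end, against 677 of all 17492 genes with a start (3.87%). Clustered copies were rare, with 12 of the 21263 windows (0.0564%) holding at least 2. These belonged to 10 genes, of which Chd4 and Tufm had a gene-end peak. The sole window with 3 copies was that of the first Chd4 start, shown above. Sequence outside the promoter windows was not searched, so most antibody peaks, that inside Alg9 among them, were not examined for the core.

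Chd4 had several antibody peaks and no IgG peak. Its gene-end peaks held 10, 8, 7 and 4 fragments, at chr6:125094826-125095577, chr6:125095721-125095979, chr6:125096146-125096443 and chr6:125096837-125097011. The second of them covers the printed stretch with its 3 cores nearly to the last base. A taller peak of 35 fragments lay between Lpar5 and Chd4, at chr6:125088495-125089395, its summit at -6973 bp from the nearest Chd4 start, where negative is upstream. At equal enrichment that peak would have held 7.34 fragments in IgG, where the nearest summit was 935862 bp away. The region chr6:125081742-125100254 strung 13 antibody peaks over 18.5 kb with gaps of at most 10 kb, and held 0 IgG peaks.

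The tallest antibody sites over a low background had no IgG peak. The highest fold of the list, 76.6 in the authors' values, belonged to a site inside Alg9, which encodes a mannosyltransferase of N-glycan assembly (chr9:50814711-50815274). It held 84 fragments, of which 17.6 would be expected in IgG at equal enrichment, and the nearest IgG summit was 5408834 bp away. A site near Slc38a2, an amino acid transporter gene, and one inside Btbd9 held 33 fragments each, with 6.92 expected in IgG. The site inside Pde1a, a cyclic nucleotide phosphodiesterase gene, held 25 fragments with 5.25 expected, and the nearest IgG summit was 109648 bp away. Further sites of this height lay near Gpr141, with 26 and 23 fragments, and near Tex44, with 25. Also inside a gene, the site in Camta1, for a calmodulin-binding transcription activator, held 22 fragments. The sites named here overlapped no IgG peak, and each overlapped a peak of the induced list. Fold is higher over a low background. If IgG was the caller's control, which is not stated, sites of high fold were already poor in IgG fragments.

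At gene ends the 6 highest folds belonged to Ska2 with Prr11, Mrpl45, Hspa1b, Stip1, Ankhd1 and Acaa1a. The site before Ska2, which is also within 1 kb of Prr11, held 27 fragments with 5.66 expected in IgG, its summit 102 bp before the Ska2 start (chr11:87108752-87109299). That of Mrpl45 held 26 with 5.46 expected, 5 bp past the start (chr11:97315547-97316262). Hspa1b, a second heat-inducible HSP70 gene, held 21 fragments 892 bp before its start (chr17:34959853-34960345). Stip1 held 18 with 3.78 expected, 146 bp before the start (chr19:7040007-7040485), and had the closest IgG summit of these genes, 83702 bp away. Ankhd1, which encodes an ankyrin repeat protein, held 22 fragments and Acaa1a, for a thiolase of peroxisomal fatty acid oxidation, held 17. None of these 6 sites overlapped an IgG peak, and the same limit holds for them, as they were named by fold.

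Few antibody sites were tall enough to be looked for in the IgG list, and their expected numbers rest on heights chosen as high. Of the 2920 antibody peaks over a low background, 46 would have held at least 3 fragments in IgG at equal enrichment. Of these 46, 5 lay at gene ends, 20 inside genes and 21 between genes. None of them overlapped an IgG peak and 45 overlapped an induced peak. Scaled by depth instead, 13 would have held at least 3, with 0 in the IgG list and 13 in the induced list. Whether the IgG library was the caller's control is not stated. If it was, a low background already meant few IgG fragments, and neither 0 tests for a difference between the antibodies.

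Gene groups were then read at their gene ends. The groups were chosen with earlier results of these data known, so the order of their shares is no independent result. Of all 21887 coding genes, 816 (3.73%) had an antibody peak at a gene end and 8 (0.0366%) an IgG peak. At that IgG share, a count of 0 in a short list says nothing of the list. Cytosolic chaperones had the highest share of the groups listed, 10 of 28 (35.7%), with 0 in IgG. Besides Hspa1b and Stip1 these were Hspa1a with 13 fragments, Dnajb1, an HSP40 gene, with 6, Dnaja1, Hspa4l, Hspa8, Hsp90aa1, Hspa4 and Hsp90ab1. The NuRD complex had 2 of 15, Chd4 and Gatad2a, the latter with 7 fragments. Common reference genes had 2 of 28, Gapdh with 9 fragments and Eef2 with 4.

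Among the fat cell lists, the adipogenic one had the highest share of genes with an antibody peak, all of low height, and IgG had 0 in each list. Genes of the adipogenic programme had 4 of 25 (16%, against the 3.73% of all coding genes): the transcription factor genes Cebpa with 6 fragments, Cebpd with 4 and Klf5 with 3, and Dgat1, for the last enzyme of triglyceride synthesis, with 3. Preadipocyte markers had 1 of 19 (5.26%), the collagen gene Col1a1 with 4 fragments. Genes of brown fat heat production had 0 of 25 and the m6A RNA methylation machinery 0 of 22. Markers of other cell types that a fat depot can hold, such as endothelial and immune cells, had 0 of 28. Lists of this size are too small for a count of 0 to show a share below 3.73%. Genes restricted to other tissues had 1 of 28, the lung surfactant gene Sftpc with 3 fragments, and olfactory receptors 2 of 1110, Olfr926 and Olfr979 with 4 each. A peak is no measure of expression, so the labelled cell type was not checked by its markers.

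Genes for zinc finger proteins named Zfp were near the share of all coding genes. They had 17 of 397 with the antibody (4.28%) and 1 with IgG, Zfp788, with 2 fragments. The highest with the antibody were Zfp143, which encodes a promoter-binding activator, with 13 fragments, Zfp444 with 9, Zfp771 with 6 and Zfp292 with 5.

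None of the 8 IgG peaks at gene ends overlapped an antibody peak, and 6 of them held 2 to 4 fragments. The Dusp6 peak held 2 fragments, 126 bp past the first base (chr10:99263347-99263545). The antibody peak at Dusp6 held 8 fragments (chr10:99263062-99263283), with a gap of 63 bp between the peaks and 82 bp between the summits. Both peaks lay within 1 kb of the Dusp6 start, and a rule of 1 shared base does not count them as shared. Gm13283 had an IgG peak of 2 fragments, 561 bp from an antibody summit of 3. Zfp788 and Tmsb4x, the thymosin beta 4 gene, held 2 fragments each, Cndp1, for a carnosine dipeptidase, 3, the pheromone receptor gene Vmn2r2 4 and Gtpbp1 7. The Lars2 peak, 609 bp from the last base of a mitochondrial leucyl-tRNA synthetase gene, held 153 fragments over a local background of 87.3. Its authors' fold was accordingly 1.74, the lowest of the 8.

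The lists shared few places, and depth limits what this shows. A median antibody peak would have held 0.839 fragments in the IgG library, where the lowest listed peak held 2. An antibody peak overlapped an IgG peak by at least 1 bp in 73 of 3256 cases (2.24%, interval 1.79 to 2.81), and an IgG peak overlapped an antibody peak in 43 of 480 (8.96%, interval 6.72 to 11.8). The antibody peaks that did so had a median of 113 fragments, a width of 704 bp and a local background of 24.5 fragments, against 4 fragments, 193 bp and 0.110 for the others. The IgG peaks that did so had a median of 72 fragments and 976 bp, against 3 fragments and 306 bp. None of the shared sites lay at a gene end, where only 8 of the 480 IgG peaks (1.67%) lay. Over a low background 4 of 2920 antibody peaks (0.137%) were shared, and over a raised one 69 of 336 (20.5%). If IgG was the caller's control, which is not stated, this split is in part one by IgG fragments. The gap between the classes would then be built in.

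Most shared antibody peaks came from a pair of blocks. The first 100 kb of sequence on chromosome 9 held 34 antibody peaks, 27 of them shared, and 14 IgG peaks, 13 of them shared. The unplaced contig JH584304 held 25 antibody peaks, 22 of them shared, and 8 IgG peaks, all 8 of them shared. The blocks thus held 49 of the 73 shared antibody peaks (67.1%) and 21 of the 43 shared IgG peaks (48.8%). They also held 13.7% and 16.8% of the bases that IgG peaks covered, and 3.55% and 4.08% of those that antibody peaks covered. Outside both blocks 24 of 3197 antibody peaks (0.751%, interval 0.505 to 1.11) and 22 of 458 IgG peaks (4.80%, interval 3.19 to 7.17) were shared.

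At the shared sites the enrichment was higher with IgG. The ratio of antibody to IgG enrichment over the genome background had a median of 0.312 over the 43 IgG sites and ran from 0.105 to 1.05. It was below 1 at 42 of them, and its exact binomial interval lay wholly below 1 at 33 and wholly above 1 at 0. Scaled by depth the median was 0.211, with 38 intervals below 1. The medians were 0.329 at the start of chromosome 9, 0.303 on the contig and 0.262 over the 21 other placed sites, and the interval lay below 1 at 13 of 13, 8 of 8 and 11 of 21 of them. The sites were taken because IgG had a peak there, and the lowest heights listed stand for a higher enrichment in IgG than in the antibody library, so that a ratio below 1 is favoured by the choice of sites, most of all at the low ones. The tallest shared site, at chr2:98666735-98667168, held 1460 IgG and 4160 antibody fragments, a ratio of 0.598. A site between genes near Ets1 held 8 IgG and 15 antibody fragments. The site inside Fry was the exception, with 25 antibody and 5 IgG fragments and a ratio of 1.05 (interval 0.394 to 3.51).

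**Figure D3:**
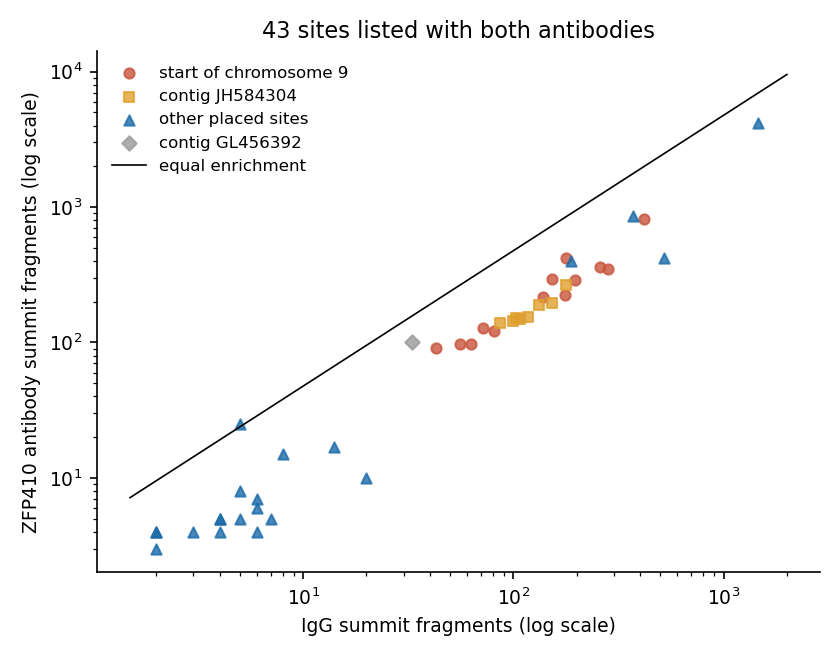
Summit fragments with the antibody (vertical, log scale) against those with IgG (horizontal, log scale) at the 43 IgG sites that overlap an antibody peak, with the line of equal enrichment over the genome background. All but 1 point lie below the line, and the median ratio is 0.312.

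Some of the strongest IgG sites had no antibody peak. A site at chr10:72491290-72491662, 163380 bp from Zwint, a kinetochore gene, held 79 IgG fragments over a local background of 2.56. At equal enrichment 377 antibody fragments would be expected, and the nearest listed antibody summit was 589928 bp away. A site at chr12:104442346-104442719, 28233 bp from Serpina3n, a protease inhibitor gene, held 129 IgG fragments over 7.12, where 615 would be expected. The nearest listed antibody summit there was 238234 bp away, and neither site was in the induced list. At shared sites of 1460 and 420 IgG fragments the antibody background was 3200 and 421. A site tall in IgG can therefore miss the antibody list and still hold antibody fragments, which the lists do not give. A site at chr14:124801553-124802231, between genes near Fgf14, held 20 IgG and 10 antibody fragments, the ratio of 0.105 given above. Of the 147 IgG peaks over a low background, which held 2 to 4 fragments, 4 (2.72%) overlapped an antibody peak. These were listed for their IgG height, so the number says little of the antibody signal there.

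The lists were spread differently over the chromosomes. Over the autosomes the antibody list held 1.25 peaks per Mb and the IgG list 0.175, counted up to the last coding gene. The antibody density ran from 0.958 on chromosome 12 to 1.75 on chromosome 19, and the IgG density from 0.0902 on chromosome 11 to 0.258 on chromosome 12. Across the 19 autosomes the antibody density went with coding genes per Mb (Pearson's r 0.706, Spearman's coefficient 0.728), and the IgG density did not (-0.260 and -0.204). These are descriptions of 1 library each, over chromosomes that share its depth.

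The sex chromosomes stood apart, in opposite ways. The X chromosome held 50 antibody peaks, 0.293 per Mb or 0.234 times the autosomal density, and 38 IgG peaks, 0.223 per Mb or 1.27 times. The cells came from males, which have a single X. The cause of either X density was not tested. The Y chromosome held 95 antibody peaks, 1.05 per Mb or 0.837 times the autosomal density, and 1 IgG peak, 0.0110 per Mb or 0.0629 times. Of the 95, 93 lay between coding genes and 48 within 10 kb of another, and 37 (38.9%) overlapped an induced peak. The tallest Y peak held 10 fragments, of which 2.1 would be expected in IgG at equal enrichment, near the lowest IgG height listed of 2.

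**Figure D4:**
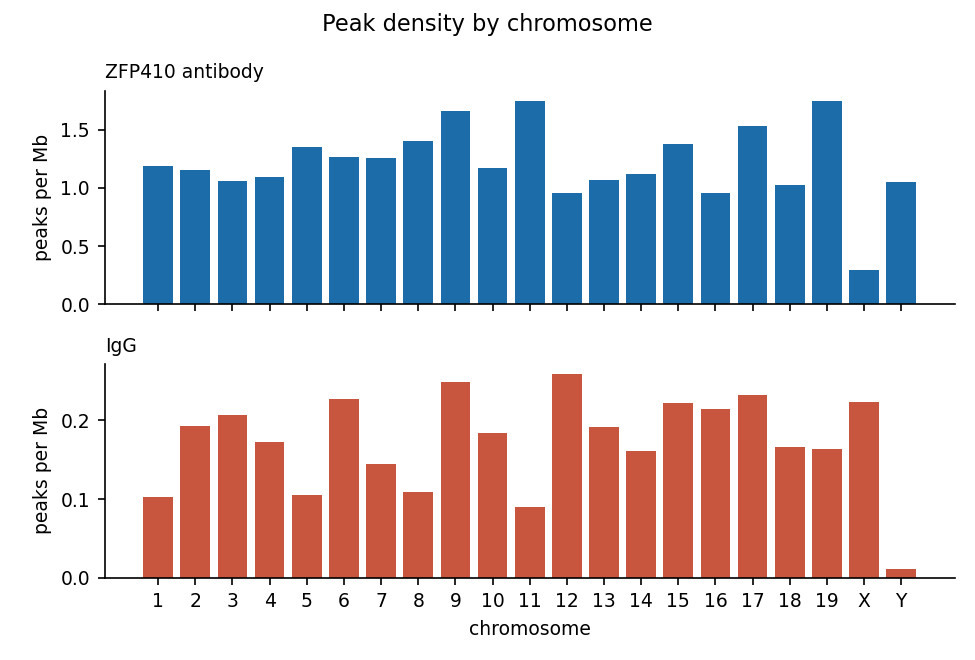
Peaks per Mb on each chromosome for the antibody (top) and IgG (bottom, own scale), 1 library each. On X the antibody bar is the lowest of its panel at 0.293 and the IgG bar is 0.223; on Y the antibody bar is 1.05 and the IgG bar 0.0110.

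IgG peaks were wider. The median width was 322.5 bp with IgG (quartiles 216.75 and 460.25) and 194 bp with the antibody (158 and 271), and the shortest peaks were 186 and 126 bp. Relative to the shortest peak, medians were 1.73 and 1.54 times. Peaks of 3 fragments had medians of 279 and 161 bp, those of 4 fragments 266.5 and 185 bp, and those of 5 fragments 385 and 214 bp. Relative to the shortest peak, peaks of 4 fragments were 1.43 times with IgG and 1.47 times with the antibody, so that order was not kept there. The 480 antibody peaks of highest fold had a median of 314 bp, close to that of IgG. Peaks over 1 kb were 28 with IgG (5.83%), with 35.2% of its covered bases, and 37 with the antibody (1.14%), with 7.68%. The widest was an IgG peak of 15204 bp on contig JH584304, and the widest antibody peak, of 3400 bp, lay on the same contig. Antibody peaks at gene ends had a median width of 214 bp, against 190 bp inside genes and 188 bp between them.

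**Figure D5:**
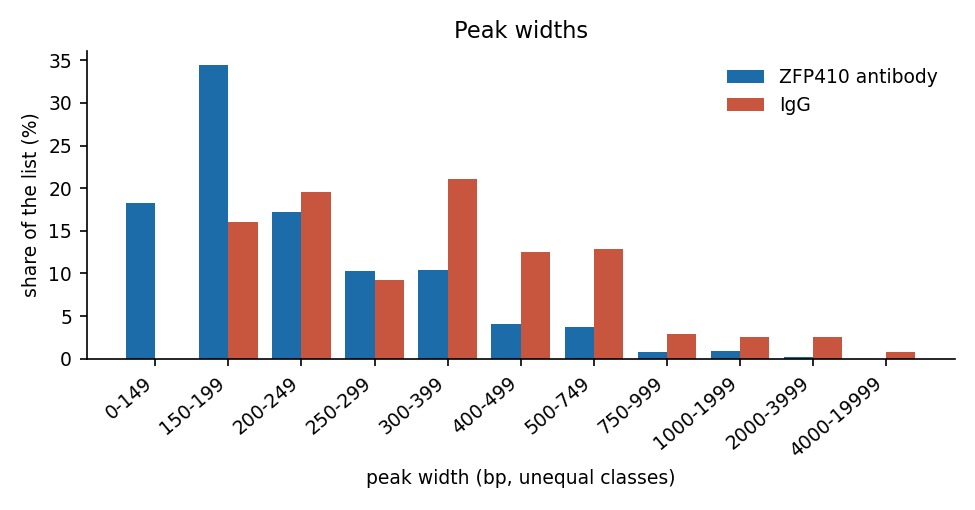
The share of each list (%) by peak width (bp, classes of unequal size) for the antibody (blue) and IgG (red). The antibody list has 34.4% of its peaks between 150 and 200 bp and the IgG list 21% between 300 and 400 bp, and peaks of 4000 bp or more are in the IgG list only.

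Peaks lay closer together in the longer antibody list, and each list had a clustered share. The median spacing was 9.41 times as long with IgG, and the antibody list held 6.78 times as many peaks. The median distance to the nearest peak of the same list was 137 kb with the antibody and 1288 kb with IgG, which is 0.168 and 0.235 of the mean spacing. A neighbour within 1 kb was found for 8.69% of antibody and 12.1% of IgG peaks, within 10 kb for 18.7% and 15.4%, and within 100 kb for 43.6% and 17.9%. The order at 10 kb was not kept for the 480 antibody peaks of highest fold, which gave 8.75%, below IgG. Peaks joined over gaps of at most 10 kb made 58 antibody runs of 3 or more peaks, with 268 peaks, and 8 such IgG runs, with 42 peaks. The longest run of each list was at the start of chromosome 9, with 27 and 14 peaks. The Chd4 region followed the contig as the third antibody run. Runs of 9, 7 and 6 peaks lay on Y, one of 7 near Apba2 on chromosome 7, and one of 6 over 13.5 kb from Hspa1b to Hspa1a. IgG runs outside the blocks had at most 4 peaks, near Stk38l on chromosome 6 and Lama2 on chromosome 10.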

How the data were processed

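Per the submitters' processing notes, the tools were Bowtie2 2.2.6 (an aligner), Picard, and the peak caller MACS2 2.1.1, and the build was mm10. Not given in the sources used here were the caller's control and its treatment of duplicates. The deposited lists give for each peak a score, the authors' fold over local background at the summit (a ratio), the −log10 of the p-value and q-value, and the summit position. A q threshold of 0.1 stands in the deposited peak names. Fold and −log10 p together returned whole summit fragments and local background for 3256 of 3256 antibody and 480 of 480 IgG peaks, within 0.001 in −log10 p. Python 3.11.15, pandas 2.3.3 and scipy 1.17.1 were used. The recovery was tested on data simulated with the formulas that it inverts, which checks the arithmetic only. Gene positions and promoters came from RefSeq, GRCm38.p6, which has the coordinates of mm10. Exons, introns and UTRs were not analysed here.

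The members, gene lists and settings were chosen with earlier results of these data known. Peaks were named by the authors' fold: the 10 highest antibody peaks on placed chromosomes, the 6 highest at gene ends and the 5 highest inside and between genes, the 10 highest and 3 widest IgG peaks, every IgG gene-end peak, the 6 shared antibody peaks of highest fold, Chd4, and up to 4 genes of each list. Some named peaks on the blocks are given as block values. A named peak inside a gene is not reported here. The Dnaja1, Hspa4l, Hspa8, Hsp90aa1, Hspa4 and Hsp90ab1 peaks, genes with the core motif, the chr2 site and runs were named after their values were seen.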

Additional observations from a re-analysis of the deposited data

How the results depend on the processing

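No paired analysis was possible because each antibody had 1 library. With a −log10 q of at least 5, gene-end shares were 20.4% of antibody peaks, median widths 278 bp (antibody) and 581 bp (IgG), overlaps 6.01% and 27%, and neighbour shares within 10 kb 16.6% and 35%. With a fold of at least 5, the gene-end shares were 25.1% and 0%, widths 248 and 486.5 bp, antibody overlap 1.12%, and neighbour shares 13.8% and 28.5%. Gene-end windows of 2 kb and 500 bp gave 26.8% and 17.8% of antibody peaks. The 480 antibody peaks of highest fold had a width of 314 bp, an overlap of 1.04% (0.833% of IgG peaks) and a neighbour share of 8.75%. Overlap of 50% of both peaks gave 0.676% and 4.58%, summits within 100 bp 0.768% and 5.21%, and placed chromosomes alone 1.52% of antibody peaks. Without the blocks of chromosome 9 and JH584304, an alternative chosen after seeing the data, overlaps were 0.751% and 4.80% and neighbour shares 17.2% and 11.4%. Neighbours within 1 kb were 8.69% and 12.1%, and within 100 kb 43.6% with the antibody. IgG had the higher neighbour share at the stricter q, at the higher fold, at equal numbers and at 1 kb, the reverse of the order at 10 kb. The causes were not tested. The gene-end share was higher with the antibody at the stricter q, the higher fold, both windows and equal numbers of peaks. Depth limits what the IgG list can show, and with 1 library a side no spread between cultures is known.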
